A study of Mus musculus with 3 samples.

Results

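The epithelial and mesenchymal cadherin genes Cdh1, Cdh2 and Cdh3, the filament gene Vim, and 6 genes for transcription factors of the epithelial-mesenchymal transition (Snai1, Snai2, Twist1, Twist2, Zeb1 and Zeb2) were examined in mouse keratinocytes. These 10 genes were taken by name from 41214 gene identifiers, and each had counts in every library. The keratinocytes, epithelial cells of the epidermis, were of the C57BL/6 strain, immortalised with SV40 and harvested in exponential growth. The labels assign 1 library to wt cells, 1 to ARPC4 ko cells and 1 to cells expressing Nrf2-EGFP. ARPC4 belongs to the Arp2/3 complex, the machine that starts branches on actin filaments, and Nrf2 is the transcription factor of the antioxidant response, here joined to the fluorescent protein EGFP. The title of the ARPC4 ko library also holds the word Cre and that of the Nrf2-EGFP library the word High. The labels do not say whether a library stands for a clone or a pool of cells, or whether the wt cells saw Cre. Values in a series of 3 are given in the order wt, ARPC4 ko, Nrf2-EGFP.

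Cadherins are calcium-dependent adhesion receptors that hold neighbouring cells together at adherens junctions and are anchored to actin by catenins. In the epithelial-mesenchymal transition (EMT), epithelial cells lose E-cadherin (Cdh1), gain N-cadherin (Cdh2) and the intermediate filament vimentin (Vim), and become motile. Transcription factors of the SNAIL, TWIST and ZEB families drive this change, SNAIL and ZEB proteins by binding E-box sequences in the Cdh1 promoter. In the epidermis, basal keratinocytes carry both E-cadherin and P-cadherin (Cdh3), and Slug (Snai2) is a normal factor of the basal layer and of wound repair.

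Libraries held 22924294 to 25723959 gene counts, and 11865 genes reached 1 CPM (read counts relative to the scaled total of the library) in at least 1 library and were compared. With 1 library per genotype, the spread between cultures is not measured and genotypes were not tested. Parentheses hold exact 95% intervals, which are for counting error only. The reads carry no molecular identifiers and may repeat a molecule, so these intervals may be too narrow even for counting error. A gene passed the size rule where the log2 ratio of CPM + 0.5 was at least 1 in size and the interval of the count ratio excluded 1. In bulk RNA, more cells with a transcript and more transcript per cell cannot be told apart. The targeted gene Arpc4 had 94.2, 61.0 and 98.4 CPM, and Nfe2l2, which encodes Nrf2, had 224.7, 179.5 and 166.4 CPM. Arpc4 counts therefore remained in the library labelled ARPC4 ko, and Nfe2l2 was not higher in the library labelled Nrf2-EGFP, so the groups are named by their labels.

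The epithelial cadherins Cdh1 and Cdh3 were the most abundant of the 10 genes in all 3 libraries, and Vim had few counts in each. The order of levels was set per kilobase of merged exons, since longer transcripts give more reads. Cdh1 was first in every library, at 235.7, 210.4 and 225.9 CPM per kilobase, or percentiles 98.9, 99.1 and 99.0 of the genes compared. Cdh3 was second, with 72.0, 79.2 and 85.6 CPM per kilobase, and Snai2 came next, with 49.5, 43.7 and 43.5. Cdh2 followed, with 2.65, 4.28 and 11.03 CPM per kilobase. These 4 places held in each library and did not overlap within counting error. The other 6 genes were between 0.013 and 1.16 CPM per kilobase.

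**Figure D1:**
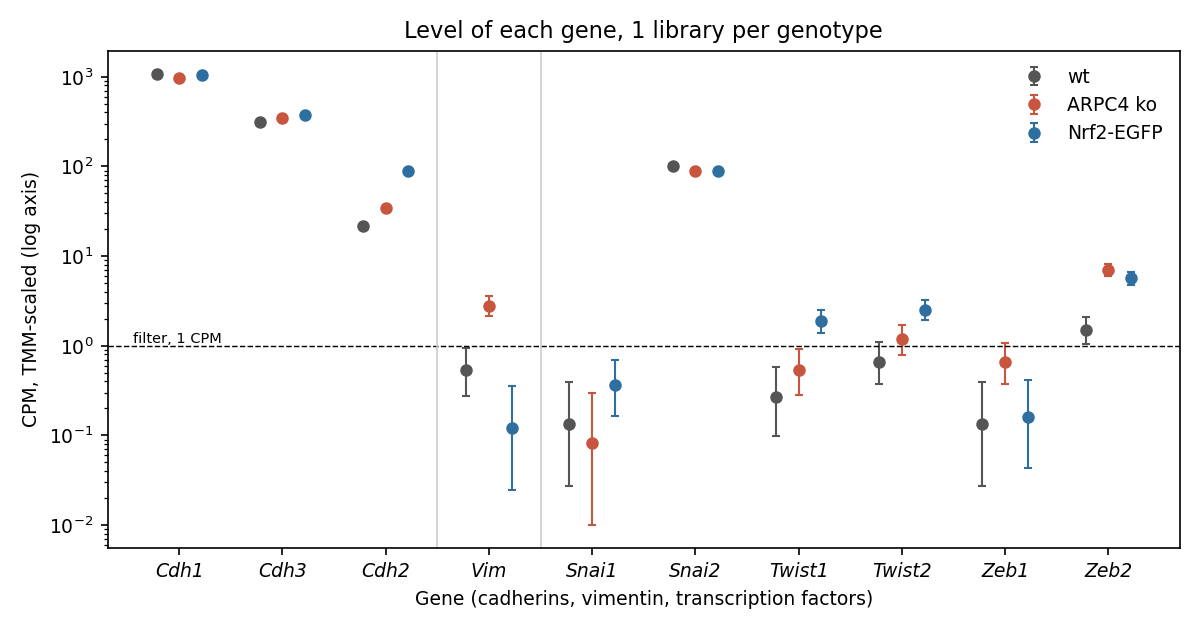
Level of each of the 10 genes in CPM (log axis, TMM-scaled) in the wt, ARPC4 ko and Nrf2-EGFP libraries, 1 point per library, with exact 95% Poisson intervals. Cdh1, Cdh3 and Snai2 lie close together across libraries, Cdh2 is highest in Nrf2-EGFP, Vim is highest in ARPC4 ko, and the dashed line is the filter at 1 CPM.

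Among those 6 low genes, few neighbours in the order could be separated. In wt the order was Twist2, Twist1, Vim, Snai1, Zeb2 and Zeb1, and only the interval of Zeb1, 0.0130 CPM per kilobase (0.0027 to 0.038), lay apart from that of its neighbour Zeb2 at 0.0758 (0.053 to 0.106). In ARPC4 ko the order was Vim, Twist2, Zeb2, Twist1, Zeb1 and Snai1, with a gap between Twist1 at 0.328 (0.175 to 0.562) and Zeb1 at 0.0641 (0.037 to 0.104). In Nrf2-EGFP it was Twist1, Twist2, Zeb2, Snai1, Vim and Zeb1, with gaps between Twist2 at 0.799 (0.614 to 1.02) and Zeb2 at 0.283 (0.238 to 0.333), and between Snai1 at 0.223 (0.102 to 0.424) and Vim at 0.0255 (0.0052 to 0.074). The merged exons of Zeb2 span 19942 bases, which lowers its value per kilobase. With each gene divided by its longest coding transcript instead (9124 bases for Zeb2), a length chosen after the data were seen, Zeb2 moved from place 9 to place 7 of the 10 genes in wt and from place 7 to place 6 in ARPC4 ko, and kept place 7 in Nrf2-EGFP. Under the same change Twist1 moved from place 6 to 8, Vim from 7 to 6 and Snai1 from 8 to 9 in wt, Twist2 moved from 6 to 7 in ARPC4 ko, and no place changed in Nrf2-EGFP.

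Of the 10 genes, 8 passed the filter on low counts, and Snai1 and Zeb1 were below it. In ARPC4 ko against wt, Vim and Zeb2 passed the size rule as higher and none as lower, where 6.76% of all genes compared passed, 4.7% higher and 2.06% lower. In Nrf2-EGFP against wt, Cdh2, Twist1, Twist2 and Zeb2 passed as higher and none as lower, where the share was 5.61% of all genes, 3.57% higher and 2.05% lower. In ARPC4 ko against Nrf2-EGFP, Vim passed as higher and Cdh2 and Twist1 as lower, where the share was 2.98%, made up of 2.01% higher and 0.961% lower. Vim and Twist1 reached 1 CPM only in the library in which they were highest, and Twist2 only outside wt. These counts are therefore no measure of how often such genes differ. Over all 10 genes the median log2 ratio was 0.48 in ARPC4 ko and 0.35 in Nrf2-EGFP against wt, beside -0.01 and 0.005 over all genes compared. Both comparisons with wt share the same wt library.

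**Figure D2:**
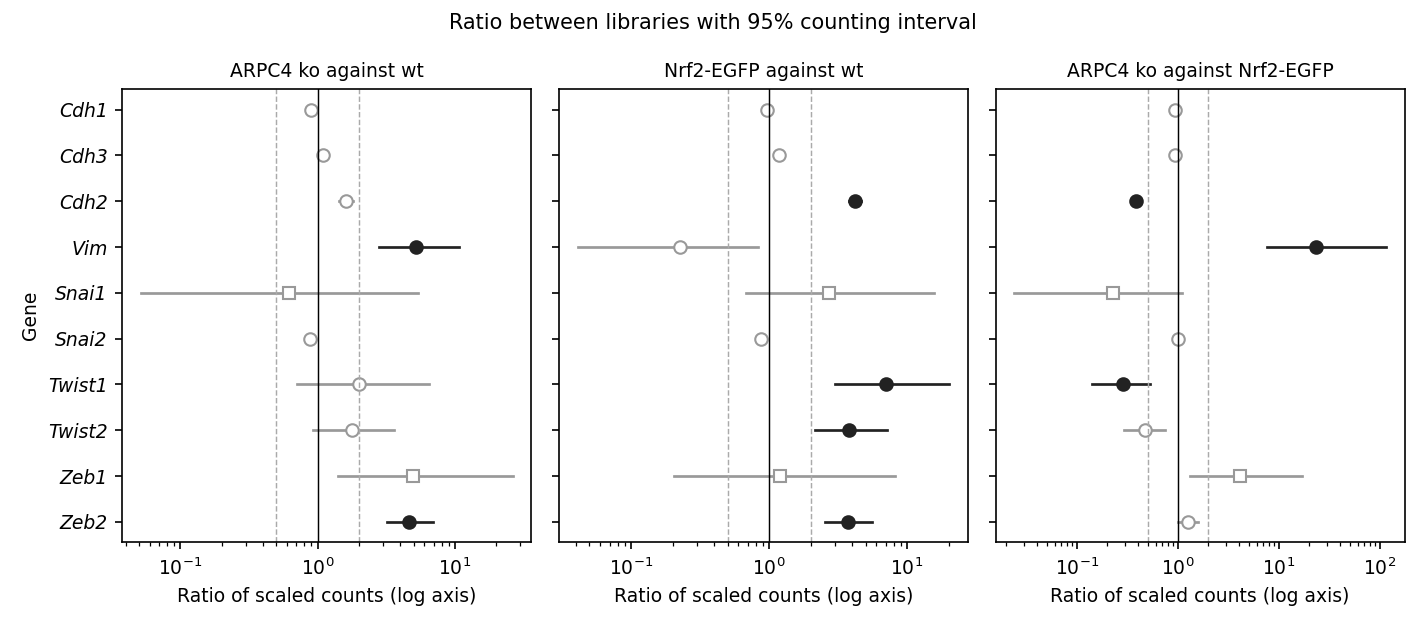
Ratio of scaled counts (log axis) of each gene for the 3 pairs of libraries, with exact 95% counting intervals, where filled points passed the 2-fold size rule, open circles did not and open squares were below the filter. Solid and dashed lines mark a ratio of 1 and the 2-fold limits, and in both comparisons with wt the passing genes all lie to the right.

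Cdh1 encodes E-cadherin, the main adhesion receptor of epithelia (ENSMUSG00000000303, chromosome 8, 106603351 to 106670246, plus strand, in GRCm38). It had 24242 counts or 1078 CPM in wt, 23395 or 962 CPM in ARPC4 ko, and 25671 or 1033 CPM in Nrf2-EGFP. The 3 values were within 1.12-fold of each other, with wt the highest. Its ratio to wt was 0.893 (0.877 to 0.909) in ARPC4 ko and 0.958 (0.942 to 0.975) in Nrf2-EGFP, and it did not pass. At this depth counting error is small, so the unmeasured spread between cultures sets the limit on reading such differences. Cdh1 was 1.07-fold lower (1.05 to 1.09) in ARPC4 ko than in Nrf2-EGFP, a direction that turned when libraries were scaled by total counts (log2 ratio -0.10 with the main scaling, 0.03 with totals).

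Cdh3 encodes P-cadherin, the cadherin of basal and proliferating keratinocytes, and lies next to Cdh1 (ENSMUSG00000061048, chromosome 8, 106510891 to 106557297, plus strand). It had 7101 counts or 316 CPM in wt, 8436 or 347 CPM in ARPC4 ko, and 9329 or 375 CPM in Nrf2-EGFP. Wt was the lowest and Nrf2-EGFP the highest. The ratio to wt was 1.099 (1.06 to 1.13) in ARPC4 ko and 1.19 (1.15 to 1.23) in Nrf2-EGFP, and neither passed. Between ARPC4 ko and Nrf2-EGFP the log2 ratio was -0.11, and 0.01 with total-count scaling.

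Cdh2 encodes N-cadherin, the cadherin of neural and mesenchymal cells (ENSMUSG00000024304, chromosome 18, 16588877 to 16809246, minus strand). It had 481 counts or 21.4 CPM in wt, 839 or 34.5 CPM in ARPC4 ko, and 2211 or 89.0 CPM in Nrf2-EGFP. The libraries were ordered wt, ARPC4 ko, Nrf2-EGFP, with counting intervals that did not overlap. The ratio to wt was 4.16 (3.77 to 4.60) in Nrf2-EGFP, which passed, and 1.61 (1.44 to 1.81) in ARPC4 ko, which did not. Cdh2 was 2.58-fold lower (2.38 to 2.79) in ARPC4 ko than in Nrf2-EGFP. Its log2 ratio in Nrf2-EGFP against wt, 2.03, lay at percentile 99.5 of all genes compared. Cdh2 passed in both comparisons with Nrf2-EGFP under each scaling, pseudocount, filter and size threshold tried.

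The balance of cadherins within a library does not depend on scaling between libraries. Per kilobase, Cdh2 stood at 1.13% of Cdh1 (1.03 to 1.23) in wt, 2.03% (1.90 to 2.18) in ARPC4 ko and 4.88% (4.67 to 5.10) in Nrf2-EGFP. Without division by length the same percents were 1.98%, 3.59% and 8.61%. N-cadherin transcripts were thus far fewer than E-cadherin transcripts in each library. The ratio of Cdh2 to Cdh1 was 4.34 times (3.92 to 4.81) that of wt in Nrf2-EGFP and 1.81 times (1.61 to 2.03) in ARPC4 ko. Cdh3 stood at 30.6% of Cdh1 (29.8 to 31.4) in wt, 37.6% (36.7 to 38.6) in ARPC4 ko and 37.9% (37.0 to 38.8) in Nrf2-EGFP. The ratio of Cdh3 to Cdh1 was 1.23 times (1.19 to 1.28) that of wt in ARPC4 ko and 1.24 times (1.20 to 1.29) in Nrf2-EGFP, and between those libraries the quotient was 0.99 (0.96 to 1.03). Of the summed counts per kilobase of the 3 cadherins, Cdh1 took 75.9%, 71.6% and 70.0%, Cdh3 took 23.2%, 26.9% and 26.6%, and Cdh2 took 0.854%, 1.46% and 3.42%.

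**Figure D3:**
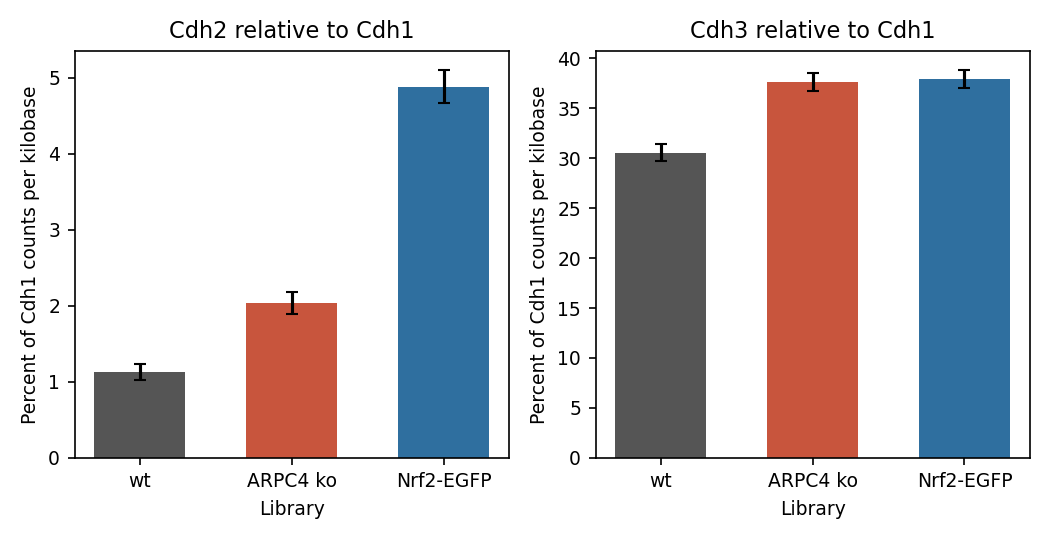
Cdh2 (left) and Cdh3 (right) counts per kilobase of merged exons as a percent of those of Cdh1 in each library, 1 library per bar, with exact 95% counting intervals. Cdh2 is 1.13% of Cdh1 in wt and 4.88% in Nrf2-EGFP, whereas Cdh3 is 30.6% in wt and close to 38% in both other libraries (37.6% and 37.9%).

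Vim encodes vimentin, the intermediate filament protein of mesenchymal cells (ENSMUSG00000026728, chromosome 2, 13573927 to 13582826, plus strand). It had 12, 68 and 3 counts, or 0.534, 2.80 and 0.121 CPM. ARPC4 ko was the highest and Nrf2-EGFP, the library with the most Cdh2, was the lowest. The ratio to wt was 5.24 (2.81 to 10.6) in ARPC4 ko, which passed, and the level there was still at percentile 8.05 of the genes compared per kilobase. In Nrf2-EGFP Vim was 4.42-fold lower (1.19 to 24.4) than in wt by count ratio, with a log2 ratio of -0.74 that did not pass. With a pseudocount of 2 CPM the log2 ratio in ARPC4 ko was 0.92 and no longer passed, and with 0.1 CPM that in Nrf2-EGFP was -1.52 and passed as lower. ARPC4 ko stood 23.2-fold (7.60 to 115) above Nrf2-EGFP, with 3 counts in the latter.

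Snai1 and Snai2 encode Snail and Slug, zinc finger repressors of Cdh1. Snai2 came after Cdh1 and Cdh3 in the order of levels, and Snai1 was among the low genes. Snai2 (ENSMUSG00000022676, chromosome 16, 14705852 to 14709385, plus strand) had 2251 counts or 100.1 CPM in wt, 2147 or 88.3 CPM in ARPC4 ko, and 2184 or 87.9 CPM in Nrf2-EGFP. Against wt, the ratio was 0.882 (0.831 to 0.936) in ARPC4 ko and 0.878 (0.827 to 0.932) in Nrf2-EGFP, and neither passed. The ratio between ARPC4 ko and Nrf2-EGFP was 1.005 (0.946 to 1.067). Snai1 (ENSMUSG00000042821, chromosome 2, 167538195 to 167542814, plus strand) had 3, 2 and 9 counts, at most 0.362 CPM. Its intervals included 1 in all 3 comparisons, and a difference was not detectable at this depth.

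Twist1 and Twist2 encode helix-loop-helix factors of mesenchyme, and both were highest in Nrf2-EGFP. Twist1 (ENSMUSG00000035799, chromosome 12, 33957671 to 33959829, plus strand) had 6, 13 and 47 counts, or 0.267, 0.535 and 1.89 CPM. The ratio to wt was 7.09 (3.02 to 20.3) in Nrf2-EGFP, and in ARPC4 ko it was 2.004 with an interval that included 1 (0.711 to 6.43). Twist1 was 3.54-fold lower (1.88 to 7.13) in ARPC4 ko than in Nrf2-EGFP, which passed. Twist2, also known as Dermo1, a factor of dermal mesenchyme (ENSMUSG00000007805, chromosome 1, 91801461 to 91848028, plus strand), had 15, 29 and 63 counts, or 0.667, 1.19 and 2.54 CPM. Nrf2-EGFP stood above wt with no overlap of counting intervals, and ARPC4 ko lay between. The ratio to wt was 3.80 (2.14 to 7.19) in Nrf2-EGFP and 1.79 (0.928 to 3.59) in ARPC4 ko. Twist2 was 2.13-fold lower (1.35 to 3.42) in ARPC4 ko than in Nrf2-EGFP, with a log2 ratio of -0.84 that did not pass, although it passed with a pseudocount of 0.1 CPM (-1.03). With a pseudocount of 2 CPM the log2 ratios in Nrf2-EGFP against wt were 0.78 for Twist1 and 0.77 for Twist2, and neither passed. Exons of the antisense gene Gm29100 overlap Twist2 over 1477 bases, and Gm29100 had 7, 9 and 20 counts. No source used here gives the strand setting of the counting. It is therefore not known how reads over the shared bases were assigned, or whether they were left out.

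Because both Twist genes were highest in the library labelled Nrf2-EGFP, the 250 bases before their RefSeq start sites (GRCm38.p6) are shown 5′ to 3′ on the gene's strand. Capitals mark a match, on either strand, to CAGGTG, the E-box bound by SNAIL and ZEB proteins, or to TGACNNNGC, the core of the antioxidant response element bound by Nrf2. The Twist1 window is chr12:33957421-33957670 and the Twist2 window is chr1:91801211-91801460, both on the plus strand.
Twist1: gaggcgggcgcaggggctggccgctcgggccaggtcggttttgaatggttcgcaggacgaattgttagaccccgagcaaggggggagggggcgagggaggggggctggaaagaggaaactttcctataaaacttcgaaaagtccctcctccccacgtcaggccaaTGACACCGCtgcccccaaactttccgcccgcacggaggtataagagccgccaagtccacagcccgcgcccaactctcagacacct
Twist2: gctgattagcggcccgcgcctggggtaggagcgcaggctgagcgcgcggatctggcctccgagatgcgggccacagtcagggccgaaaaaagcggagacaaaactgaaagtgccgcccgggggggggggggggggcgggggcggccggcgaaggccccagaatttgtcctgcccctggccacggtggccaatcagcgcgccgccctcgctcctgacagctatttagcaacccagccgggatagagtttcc
The Twist1 window held 1 match to TGACNNNGC, beginning 85 bases before the start site, and none to CAGGTG. The Twist2 window held neither, nor did the Vim window or any of the 4 Zeb2 windows. The Snai1 window held 1 CAGGTG match, 126 bases before the start site. Of 32851 such windows of 27025 genes, 10.2% held TGACNNNGC and 17.2% held CAGGTG. A match is a string of letters and not a measured binding site. Windows were matched for 5 of the 10 genes, and not for Cdh1, Cdh2, Cdh3, Snai2 and Zeb1.

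Zeb1 and Zeb2 encode zinc finger and homeobox repressors of epithelial genes. Zeb2 (ENSMUSG00000026872, chromosome 2, 44983632 to 45117395, minus strand) had 34 counts or 1.51 CPM in wt, 171 or 7.03 CPM in ARPC4 ko, and 140 or 5.63 CPM in Nrf2-EGFP. It was the only one of the 10 genes that passed against wt in both other libraries. Its ratio to wt was 4.65 (3.20 to 6.94) in ARPC4 ko and 3.73 (2.55 to 5.59) in Nrf2-EGFP, and between those libraries it was 1.25 (0.99 to 1.57). These log2 ratios, 1.90 and 1.61, still passed with a pseudocount of 2 CPM (1.36 and 1.12). The antisense gene Zeb2os, whose exons overlap Zeb2 over 653 bases, had 1, 1 and 3 counts. Zeb1 (ENSMUSG00000024238, chromosome 18, 5591860 to 5775467, plus strand) had 3, 16 and 4 counts, or 0.133, 0.658 and 0.161 CPM. Its highest library was ARPC4 ko, as for Vim. The ratio of ARPC4 ko to wt was 4.93 (1.41 to 26.4) and the gene stayed below the filter, so it was not compared.

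Genes with a pattern most like that of a member were sought among 9101 named genes of at least 10 CPM, by the distance between their log2 ratios to wt in the 2 other libraries. With 3 libraries this describes a pair of values only. For Cdh2 no gene lay within a distance of 0.1, and the nearest were Gnao1 (a G protein subunit, distance 0.17), Ccn2 (connective tissue growth factor, 0.21) and Tnc (the matrix protein tenascin C, 0.22). For the genes that varied little, many lay within 0.1, namely 769 for Cdh1, 484 for Cdh3 and 647 for Snai2. The nearest were Ggnbp2, Gmfb and Cycs for Cdh1, Slc15a4, Nupl2 and Spats2 for Cdh3, and Akt1, Cnot9 and Orc2 for Snai2.

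Catenins link cadherins to actin. Of 16 catenins and other adherens junction genes, 14 were compared and none passed in any pair, where 6.76%, 5.61% and 2.98% of all genes passed, so that a count of 0 among 14 is near the background. They had median log2 ratios of 0.08 in ARPC4 ko and 0.16 in Nrf2-EGFP against wt. Among catenins, chosen here after their values were seen, Ctnnb1 (beta-catenin) had 609, 664 and 617 CPM, and Ctnna1 (alpha-catenin) had 571, 498 and 544 CPM. Jup (plakoglobin, shared with desmosomes) had 1077, 756 and 966 CPM, the lowest in ARPC4 ko. Of 14 other cadherins only Cdh13 and Cdh24 were compared and 6 had no count in any library. Cdh24 passed as higher in ARPC4 ko against wt, 2.40-fold (1.89 to 3.07), with 97, 252 and 148 counts.

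Genes of the epithelial state lay on both sides of their wt level. Of 30 such genes, 27 were compared, of which 13 exceeded wt in the ARPC4 ko library and 16 did so with Nrf2-EGFP. Grhl1, a grainyhead transcription factor of epidermal differentiation, was the only one past the rule against wt, beside 6.76% and 5.61% of all genes. It had 33.9, 15.1 and 10.1 CPM, 2.25-fold lower (1.99 to 2.56) in ARPC4 ko and 3.35-fold lower (2.90 to 3.87) in Nrf2-EGFP. Log2 ratios ran from -1.15 (Grhl1) to 0.83 (Cldn3, a tight junction claudin) in ARPC4 ko and from -1.69 (Grhl1) to 0.81 (Cldn4, another claudin) in Nrf2-EGFP. Their medians were -0.002 in ARPC4 ko, which was 0.14 with total-count scaling, and 0.06 in Nrf2-EGFP. Named after their values were seen, the epithelial splicing factor Esrp1 had 341, 214 and 238 CPM and the adhesion molecule Epcam 341, 524 and 550 CPM, and neither passed.

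Of 30 mesenchymal effectors 17 were compared. In ARPC4 ko against wt 3 passed as higher and 1 as lower, where 4.7% of all genes were higher and 2.06% lower. In Nrf2-EGFP 8 passed as higher and 2 as lower, where the shares were 3.57% and 2.05%. Calls were thus more often higher than lower over all genes too. The list's median log2 ratios were 0.50 and 0.67, and those over all genes compared -0.01 and 0.005. Mmp3, Fstl1 and Col5a1 were below 1 CPM in wt and were compared only through libraries where they were higher. These counts and medians are therefore no measure of how often such genes differ. Fbn1 (fibrillin 1) had 165, 837 and 517 counts, ratios to wt of 4.69 (3.97 to 5.58) and 2.84 (2.38 to 3.40). Vcan (the proteoglycan versican) had 285, 348 and 58 counts, 5.43-fold lower (4.08 to 7.33) in Nrf2-EGFP than in wt. Mmp3 (stromelysin 1) had 3, 147 and 42 counts and Fstl1 (follistatin-like 1) 2, 55 and 26, so their ratios rest on very few wt counts. Acta2 (smooth muscle actin) had 114, 41 and 34 counts and was 3.01-fold lower (2.09 to 4.41) in ARPC4 ko and 3.70-fold lower (2.51 to 5.61) in Nrf2-EGFP than in wt. The fibrillar collagen genes Col1a1, Col1a2 and Col3a1 were below the filter, whereas Col5a1, named after its values were seen, had 12, 38 and 62 counts and passed as higher in Nrf2-EGFP against wt, with a ratio of 4.68 (2.496 to 9.53).

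Of 18 other transcription regulators tied to EMT, 15 were compared. They include Id1, Id2, Id3 and Id4, which inhibit helix-loop-helix factors, so the list mixes activities. Against wt, Foxc2 passed as higher in ARPC4 ko, where 4.7% of all genes did, and 4 genes passed as higher in Nrf2-EGFP, where 3.57% did, among them Prrx2, Klf8 and Sox4. None passed as lower, and the medians were 0.55 and 0.01. Prrx2 had 22, 59 and 82 counts and Klf8 had 17, 27 and 52. Both were below 1 CPM in wt and were compared only through libraries where they were higher. The counts of factors that passed are therefore no measure of how often such factors differ. Foxc2, a forkhead factor, had 103, 267 and 136 counts, with ARPC4 ko the highest. Sox4 had 1446, 3018 and 3300 counts. Its ratio to wt was 2.07 (1.94 to 2.20) in Nrf2-EGFP, which passed, and 1.93 (1.81 to 2.06) in ARPC4 ko, which did not. The log2 ratios were close, 1.04 and 0.94. Regulators of the SNAIL, TWIST and ZEB proteins, which act on their stability or as corepressors, had none of 17 past the rule in any pair, again near the shares of 6.76%, 5.61% and 2.98% over all genes, and medians of 0.00 and 0.11.

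Transforming growth factor beta is a textbook inducer of EMT. Of 24 genes of its pathway and of the related bone morphogenetic protein and activin pathways, inhibitors among them, 21 were compared. In ARPC4 ko 2 passed as higher and 1 as lower, beside 4.7% and 2.06% of all genes. In Nrf2-EGFP 3 passed as higher and 1 as lower, beside 3.57% and 2.05%. The medians were 0.35 and 0.18, against -0.01 and 0.005 over all genes. Ltbp1, which binds the latent ligand in the matrix, had 85.8, 237 and 288 CPM, and Fst (follistatin, an activin antagonist) had 306, 721 and 730 CPM, both past the rule in both libraries. Bmp7 had 55.8, 21.3 and 48.5 CPM and was 2.62-fold lower (2.36 to 2.91) in ARPC4 ko than in wt.

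**Figure D4:**
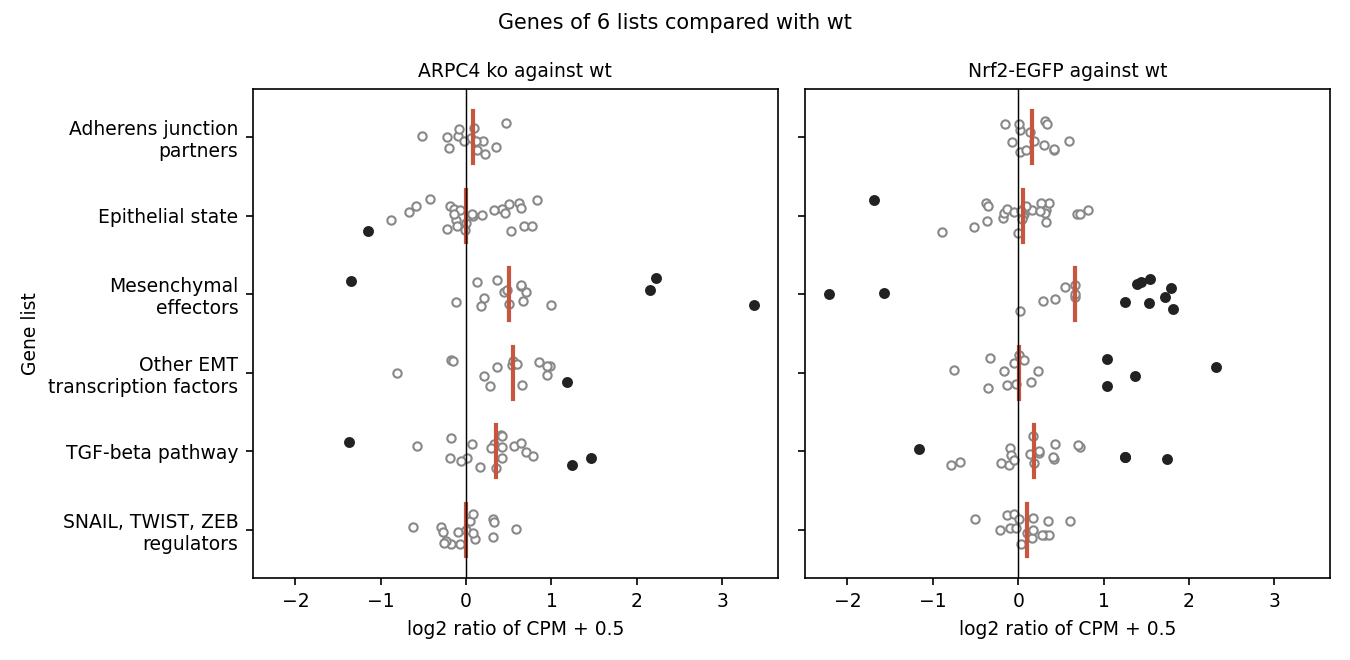
Log2 ratio of CPM + 0.5 against wt for each gene compared in 6 lists, in ARPC4 ko (left) and Nrf2-EGFP (right), with 1 point per gene, filled where it passed the size rule, and red bars for list medians. Adherens junction partners and SNAIL, TWIST and ZEB regulators have no filled point, and mesenchymal effectors have 4 in ARPC4 ko and 10 in Nrf2-EGFP.

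Markers of other cell types were examined because Cdh2, Vim, Zeb2 and both Twist genes are also expressed by fibroblasts, melanocytes, immune or endothelial cells. Of 14 fibroblast markers, which include Twist2, 4, 4 and 6 had any count, and the list summed to 40, 79 and 130 counts. Of the 14, 8 had 0 counts in all 3 libraries, among them Col1a2, Col3a1, Dcn and Lum. Col1a1, Pdgfra and Twist2 had counts in each library. The 2 markers compared, Twist2 among them, had median log2 ratios to wt of 0.33 in ARPC4 ko and 1.02 in Nrf2-EGFP. Both were below 1 CPM in wt and were compared only through libraries where they were higher. These medians are therefore no measure of how such markers differ. The part of the other markers, Twist2 aside, in the Twist values was not tested. The 9 melanocyte markers summed to 78, 132 and 55 counts, with Tyr, Tyrp1, Dct and Sox10 at 0 throughout. The only one compared, Mitf, had log2 ratios to wt of 0.72 in ARPC4 ko and -0.53 in Nrf2-EGFP. Mitf passed as higher in ARPC4 ko against Nrf2-EGFP, with a log2 ratio of 1.26, where 2.01% of all genes did. The 11 immune markers summed to 133, 183 and 148 counts, mostly of Cd68, with the Langerhans cell marker Cd207 and Cd3e at 0. The 9 endothelial markers summed to 622, 1317 and 1571 counts, of which Flt1 gave 556, 1259 and 1487, while Erg and Cldn5 were at 0 and Cdh5 had at most 1. Of the 3 compared, only Flt1 passed against wt. It was higher in both ARPC4 ko and Nrf2-EGFP, where 4.7% and 3.57% of all genes were. Of 12 keratinocyte markers 11 were above 1 CPM in each library, and the list summed to 25663, 14943 and 20194 CPM. Against wt its median log2 ratio was -0.38 in ARPC4 ko, with 2 of the 11 genes above wt, and -0.23 in Nrf2-EGFP, with 5 of 11 above. Krt5, Krt14 and Dsg3 passed as lower in ARPC4 ko and Dsc3 in Nrf2-EGFP, where 2.06% and 2.05% of all genes did. Trp63, the master factor of stratified epithelia, had 299, 353 and 366 CPM and was among those above wt. The part of these markers in the values of the 10 genes was not tested.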

How the data were processed

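The deposited tables, 1 for each library, hold raw, unnormalised read counts for genes, from TruSeq Stranded mRNA libraries read at 65 bp single end, per the labels' protocols. TopHat2 2.1.0, Bowtie 1.1 and HTSeq with mm10 are named in the submitters' processing notes, and no source used here gives their settings, strand option or annotation release. Entries that name no gene (9.08%, 8.22% and 8.48%, in the order wt, ARPC4 ko, Nrf2-EGFP) were left out. Symbols, coordinates and exon lengths came from GENCODE M21 (GRCm38, the same assembly as mm10), matched by identifier for 40254 of 41214, and promoters from RefSeq on GRCm38.p6.

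Libraries were scaled with TMM factors (0.981, 1.06 and 0.966) of edgeR 4.0.16 in R 4.3.3, and DESeq2 1.42.0 size factors were an alternative. No count model was fitted, as each genotype has 1 library. Ratio intervals are Clopper-Pearson, conditional on the summed count, levels have exact Poisson intervals, and ratios of cadherin ratios have exact conditional odds ratio intervals (SciPy 1.17.1). The steps were run on counts simulated from the same counting model that the intervals assume. That simulation held no repeated reads and no spread between cultures, so it checks the arithmetic only. Where a count is 0, up to 3 counts remain possible, which is 0.133, 0.123 and 0.121 CPM in the same order.

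All 10 genes were named. From each pathway list up to 4 genes past the rule against wt with the largest log2 ratio in size were named, and others as marked or when they completed a count. Of the genes so chosen, 2 are not reported here. The genes and lists were chosen with earlier results of these data known.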

Additional observations from a re-analysis of the deposited data

How the results depend on the processing

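Scaling by total counts moved the median of all genes by 0.10 (ARPC4 ko against wt) and 0.12 (ARPC4 ko against Nrf2-EGFP) in log2. Over all alternative settings, 2 of 120 recomputed log2 ratios of the 10 genes changed sign. They were those of Cdh1 and Cdh3 in ARPC4 ko against Nrf2-EGFP, with total counts. No ratio past the size rule changed sign. Of 144 list medians recomputed over all settings, 11 changed sign, with total counts, DESeq2 size factors or a filter at 10 CPM. That filter left 1 gene of the EMT transcription factors among the 10. With a pseudocount of 2 CPM, 1 of the 10 genes passed in ARPC4 ko against wt and 2 in Nrf2-EGFP against wt. With a filter at 10 CPM, which leaves 4 of them, 0, 1 and 1 passed in ARPC4 ko against wt, Nrf2-EGFP against wt and ARPC4 ko against Nrf2-EGFP. Over all genes, in that order of comparisons, 454, 362 and 147 passed with a pseudocount of 2 CPM, 374, 334 and 114 with a filter at 10 CPM, and 2025, 1700 and 1095 with a size threshold of 1.5-fold, against 802, 666 and 353. Of the summed cadherin counts without division by length, Cdh2 took 1.51%, 2.57% and 5.94% and Cdh3 22.3%, 25.8% and 25.1% (wt, ARPC4 ko, Nrf2-EGFP), and Cdh1 69.0% in Nrf2-EGFP. With the longest coding transcript as length, chosen after seeing the data, these were 1.38%, 2.35% and 5.45%, 22.5%, 26.1% and 25.4%, and 69.2%. No paired analysis was possible because each genotype has 1 library, and no library could be left out for the same reason. Low depth limits Snai1 and Zeb1, with 2 to 16 counts, and also Vim, Twist1 and Twist2, with 3 to 68.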
